A study of Mus musculus with 19 samples.

Results

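A set of 37 genes known from macrophages and from the presentation of antigen was followed through brown fat that lacked the Mediator subunit Med1. Membership was set by gene symbol, and the list was drawn up with earlier results of these data known. A member was taken where a transcript cluster of the array carried exactly 1 gene symbol and that symbol was on the list. This found 36 of the 37 members among 22180 genes so defined. The exception was Cd74, the invariant chain of major histocompatibility complex (MHC) class II, whose transcript cluster carries a second symbol and was not used. Every measured member had a single transcript cluster.

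RNA from mouse interscapular brown adipose tissue (BAT) and from 3T3-L1 cells was hybridised to 19 whole-transcript arrays. In the embryo, 3 control arrays (Myf5CreMed1f/w) were set against 4 knockout arrays (Myf5CreMed1f/f) at E17.5. Both embryonic groups carry Myf5-Cre, and the controls keep a wild-type allele of Med1 beside the floxed allele. In the adult, at 10 weeks, 2 arrays of floxed mice without Cre (Med1f/f) were set against 2 arrays of AdipoqCreMed1f/f mice. Myf5-Cre acts in precursors of skeletal muscle and brown fat, and Adipoq-Cre acts in mature fat cells, so neither is directed at macrophages. The 8 arrays of 3T3-L1, a mouse preadipocyte line with no macrophages, hold 4 of wild-type cells and 4 labelled as a pool of MED1-KO cells, before and 2 days after hormonal stimulation. Tissue was profiled in bulk, so more macrophages and more RNA of these genes per macrophage cannot be told apart. The labels do not say whether replicates are separate animals, so each p-value reflects only how far these arrays spread, which may be technical.

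Macrophages live in every fat depot, where they clear dying cells, lipid and debris. They take up particles through scavenger and Fc receptors, break them down in lysosomes, and show peptides to T cells on MHC class II. They also make C1q, the recognition unit of the classical complement pathway. Their identity rests on signalling through the receptor Csf1r and on the transcription factor PU.1, encoded by Spi1.

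All values are log2 signals, and differences are knockout minus control on the log2 scale with standard errors from limma. Med1 measured 5.99 and 6.9 in adult control arrays and 5.28 and 5.13 in adult knockout arrays, so the groups did not overlap (-1.24 ± 0.31, adjusted p = 0.19). In the embryo it measured 6.94, 7.33 and 7.82 in controls and 7.0, 7.1, 7.1 and 6.88 in knockouts, which overlap (-0.35 ± 0.19, adjusted p = 0.37). Where the probes lie relative to the deleted part of Med1 is not known here. Ucp1, which defines brown fat, reached 10.1 to 11.6 in embryonic controls, 7.23 to 8.34 in embryonic knockouts, 12.09 and 12.5 in adult controls and 10.9 and 11.75 in adult knockouts, where the groups did not overlap (-0.97 ± 0.32, adjusted p = 0.29). The 3 experiments differ in the distribution of their values, so no level is compared between them.

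In adult brown fat the set was higher in the knockout almost throughout. Both knockout arrays lay above both control arrays for 33 of the 36 measured members (91.7%), against 21.8% of all genes. The median difference over the members was 1.16, against 0 over all genes. A difference of at least 2-fold was seen in 24 members (66.7%), against 1.53% of all genes. The 3 members whose arrays overlapped were Cx3cr1, Trem2 and Itgax, and 0 members lay below the controls in both knockout arrays, against 20.1% of all genes. Trem2 and Itgax measured near the adult array medians of 2.87 to 2.89, which limits what their overlap can show. The mean over the members was 4.86 and 4.61 on the control arrays and 5.74 and 5.85 on the knockout arrays.

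No member passed the threshold of 0.05 in the adult once p-values were adjusted over all genes. With 2 arrays a group, limma called 3 of 22180 genes higher (0.0135%) and 3 lower. The lowest adjusted p of a member was 0.052. At an unadjusted p under 0.05 there were 31 members higher (86.1%) and 0 lower, against 7.75% of all genes higher. A fit of all 19 arrays, which takes its spread from the other experiments too, called 31 members higher, against 5.36% of all genes. That fit includes the cell arrays, on which 22 of the 36 members were under the array median throughout.

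**Figure D1:**
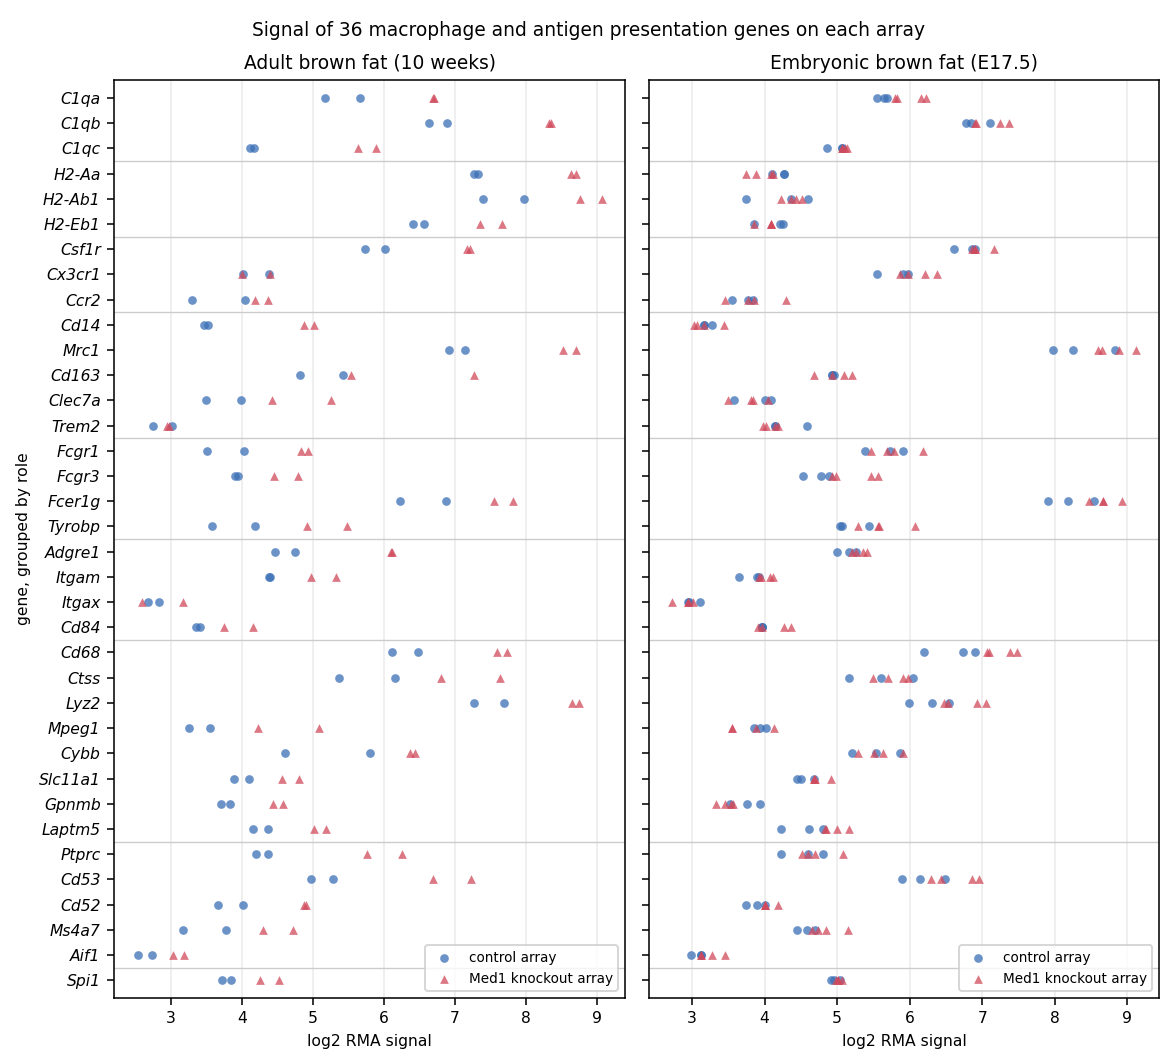
Log2 signal of each of the 36 measured members (rows, grouped by role) on every brown fat array, at 10 weeks and at E17.5 (circles: control arrays, triangles: knockout arrays). The adult triangles lie to the right of the circles in 33 rows, for example C1qb (8.35 and 8.32 against 6.63 and 6.89), while the embryonic symbols of all but 4 members overlap.

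The 3 chains of C1q were among the most clearly separated members. C1qc measured 4.17 and 4.12 in adult controls and 5.63 and 5.89 in knockouts (1.61 ± 0.15, adjusted p = 0.052). C1qb measured 6.63 and 6.89 in controls and 8.35 and 8.32 in knockouts (1.58 ± 0.15, adjusted p = 0.052). C1qa measured 5.66 and 5.17 in controls and 6.70 and 6.69 in knockouts (1.28 ± 0.20, adjusted p = 0.097). The lowest knockout array exceeded the highest control array by more than the gap between replicates for each chain. The genes C1qb, C1qc and C1qa lie side by side on chromosome 4 with 0 protein-coding genes between neighbours, so they share a chromosomal neighbourhood and are not independent examples.

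MHC class II, which shows peptides from engulfed material to helper T cells, was covered by 3 of its 4 listed genes. The alpha chain gene H2-Aa measured 7.33 and 7.27 in adult controls and 8.64 and 8.71 in knockouts (1.38 ± 0.13, adjusted p = 0.052). Its partner H2-Ab1, the matching beta chain, measured 7.97 and 7.40 in controls and 9.07 and 8.77 in knockouts (1.24 ± 0.24, adjusted p = 0.13). The beta chain gene H2-Eb1 measured 6.56 and 6.41 in controls and 7.36 and 7.66 in knockouts (1.03 ± 0.16, adjusted p = 0.1). All 3 genes were at least 2-fold higher, and the residual SD of H2-Aa, 0.04, was the lowest of the members in the adult. These genes also lie next to one another, on chromosome 17.

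MHC class II promoters are known for a compact module of boxes that bind RFX, CREB-family and NF-Y proteins. The sequences below are the 250 bases before the RefSeq gene start of H2-Aa (chr17:34287824-34288073, minus strand) and H2-Eb1 (chr17:34305617-34305866, plus strand) in GRCm38.p6, shown because the module marks class II genes. Capitals mark the Y box, searched as CTGATTGG on both strands, and in H2-Aa also the X2 box, searched as TGACGTCA on both strands.
H2-Aa: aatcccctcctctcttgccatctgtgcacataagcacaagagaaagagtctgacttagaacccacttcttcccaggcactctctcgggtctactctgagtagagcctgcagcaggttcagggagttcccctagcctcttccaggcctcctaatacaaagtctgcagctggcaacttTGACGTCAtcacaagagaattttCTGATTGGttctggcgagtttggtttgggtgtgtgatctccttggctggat
H2-Eb1: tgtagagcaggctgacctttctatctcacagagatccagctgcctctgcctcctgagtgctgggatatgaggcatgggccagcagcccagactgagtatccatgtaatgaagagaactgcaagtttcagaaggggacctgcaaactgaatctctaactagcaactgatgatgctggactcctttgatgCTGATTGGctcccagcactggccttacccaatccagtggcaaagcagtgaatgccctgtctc
The Y box lay 51 to 44 bases before the start in H2-Aa and 62 to 55 bases before it in H2-Eb1. It was found in 3.83% of all 32851 promoter windows of this length, and the X2 box, 74 to 67 bases before the H2-Aa start, in 1.55%. Windows were at hand for 28 of the 37 members. Of their 32 windows, 2 held the Y box (6.25%) and 1 the X2 box (3.12%), all of them shown above. H2-Ab1 was not among the genes with a match, which may be for want of a window.

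Receptors for growth factors and chemokines divided. Csf1r, the receptor for the macrophage growth factor CSF1, measured 6.02 and 5.74 in adult controls and 7.22 and 7.17 in knockouts (1.32 ± 0.15, adjusted p = 0.075). The fractalkine receptor Cx3cr1, carried by monocytes and several resident macrophages, measured 4.38 and 4.02 in controls and 4.39 and 4.0 in knockouts (0.00 ± 0.21, adjusted p = 1). The chemokine receptor Ccr2, which brings monocytes from blood into tissue, measured 4.05 and 3.30 in controls and 4.19 and 4.37 in knockouts (0.60 ± 0.27, adjusted p = 0.44). Csf1r was thus separated between groups by far more than its replicates differed. The Cx3cr1 groups covered the same range, and the Ccr2 groups came close to each other.

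Among pattern and scavenger receptors, 4 of 5 were at least 2-fold higher in the adult knockout. Mrc1, the mannose receptor of tissue macrophages, measured 7.14 and 6.92 in controls and 8.53 and 8.71 in knockouts (1.59 ± 0.15, adjusted p = 0.052). Cd14, a co-receptor for bacterial lipopolysaccharide, measured 3.52 and 3.47 in controls and 4.87 and 5.02 in knockouts (1.44 ± 0.14, adjusted p = 0.052). Both differences were many times the gap between replicates. Cd163, the haemoglobin scavenger receptor, measured 4.82 and 5.42 in controls and 5.54 and 7.27 in knockouts (1.28 ± 0.58, adjusted p = 0.44). Its groups did not overlap, but 1 knockout array carried most of the difference, and its residual SD of 0.92 was the highest of the members. Clec7a, the beta-glucan receptor Dectin, was higher by 1.09. The lipid receptor Trem2 measured 2.75 and 3.01 in controls and 2.98 and 2.95 in knockouts, which overlap (0.08 ± 0.15).

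The Fc receptors and their signalling adaptors were all higher in both adult knockout arrays. Tyrobp, an adaptor shared by many myeloid receptors, measured 4.18 and 3.58 in controls and 5.48 and 4.92 in knockouts (1.32 ± 0.28, adjusted p = 0.15). Fcer1g, the common gamma chain of Fc receptors, was higher by 1.13 and the high-affinity IgG receptor Fcgr1 by 1.11. The IgG receptor Fcgr3 was higher by 0.70.

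Of the 4 genes of adhesion, Adgre1 stood out. Adgre1 encodes the F4/80 antigen that is used to stain mouse macrophages, and measured 4.75 and 4.46 in controls and 6.10 and 6.11 in knockouts (1.5 ± 0.16, adjusted p = 0.059). The integrin chain Itgam was higher by 0.76 and the homophilic receptor Cd84 by 0.58. Itgax, an integrin chain abundant on dendritic cells and on some fat macrophages, measured 2.83 and 2.68 in controls and 2.59 and 3.17 in knockouts. Its arrays overlapped (0.13 ± 0.23), and both control values were under the array medians of 2.87 to 2.89. Itgax lies next to Itgam on chromosome 7, with 0 protein-coding genes between them.

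All 8 genes of lysosomes and microbe killing were higher in both adult knockout arrays, with a median of 1.21. Ctss, the protease cathepsin S that trims the class II invariant chain, measured 6.16 and 5.37 in controls and 6.81 and 7.63 in knockouts (1.45 ± 0.37, adjusted p = 0.19). Cd68, a lysosomal glycoprotein, measured 6.48 and 6.12 in controls and 7.73 and 7.59 in knockouts (1.36 ± 0.17, adjusted p = 0.08). Lyz2, lysozyme M, measured 7.69 and 7.27 in controls and 8.65 and 8.75 in knockouts (1.22 ± 0.18, adjusted p = 0.095). The replicates of Ctss differed most of these 3 genes. Mpeg1, the pore-forming protein perforin-2 of phagocytes, was higher by 1.26 and Cybb, the catalytic subunit of the phagocyte NADPH oxidase, by 1.20. The lysosomal membrane protein Laptm5 was higher by 0.84, the glycoprotein Gpnmb by 0.75 and the metal transporter Slc11a1 by 0.70.

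The largest fitted differences among the members were in surface proteins shared by most leukocytes. Cd53, a tetraspanin of leukocytes, measured 5.28 and 4.98 in adult controls and 6.69 and 7.23 in knockouts, 3.55-fold higher (1.83 ± 0.23, adjusted p = 0.079). Ptprc, the pan-leukocyte phosphatase CD45, measured 4.37 and 4.20 in controls and 5.76 and 6.26 in knockouts, 3.30-fold higher (1.72 ± 0.21, adjusted p = 0.075). Neither gene is particular to macrophages. The glycoprotein Cd52 was higher by 1.04, the tetraspan protein Ms4a7 by 1.03 and Aif1, the actin-binding protein IBA1, by 0.48. Spi1, the transcription factor PU.1, measured 3.85 and 3.72 in controls and 4.52 and 4.25 in knockouts (0.60 ± 0.16, adjusted p = 0.2).

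PU.1 binds purine-rich sites with a GGAA core. The 4 sequences below are the 250 bases before the RefSeq gene start in GRCm38.p6 of members with large adult differences, shown because Spi1 is itself a member: C1qb (chr4:136886201-136886450, minus strand), C1qc (chr4:136892915-136893164, minus strand), Mrc1 (chr2:14229164-14229413, plus strand) and Cd53 (chr3:106790150-106790399, minus strand). Capitals mark GAGGAA or AGGAAGT on either strand. The letters of these motifs can overlap.
C1qb: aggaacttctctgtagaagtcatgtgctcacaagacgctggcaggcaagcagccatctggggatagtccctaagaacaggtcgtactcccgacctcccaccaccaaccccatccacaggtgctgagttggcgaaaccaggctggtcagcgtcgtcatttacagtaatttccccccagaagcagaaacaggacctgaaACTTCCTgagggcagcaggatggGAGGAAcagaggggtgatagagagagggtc
C1qc: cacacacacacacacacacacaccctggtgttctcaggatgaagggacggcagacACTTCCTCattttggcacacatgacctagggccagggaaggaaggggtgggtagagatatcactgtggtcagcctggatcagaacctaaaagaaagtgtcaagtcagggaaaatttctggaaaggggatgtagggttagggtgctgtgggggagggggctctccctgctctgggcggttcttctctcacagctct
Mrc1: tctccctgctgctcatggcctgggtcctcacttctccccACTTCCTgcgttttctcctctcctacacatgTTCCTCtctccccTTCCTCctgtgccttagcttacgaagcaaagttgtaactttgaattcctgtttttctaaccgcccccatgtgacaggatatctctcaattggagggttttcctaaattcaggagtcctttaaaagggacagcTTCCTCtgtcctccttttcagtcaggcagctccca
Cd53: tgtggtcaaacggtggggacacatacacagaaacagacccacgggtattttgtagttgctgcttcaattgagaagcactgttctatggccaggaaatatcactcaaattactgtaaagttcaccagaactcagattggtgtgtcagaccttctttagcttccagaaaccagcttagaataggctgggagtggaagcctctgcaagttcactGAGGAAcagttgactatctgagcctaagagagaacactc
GAGGAA was found in 17 of 32 windows of 28 members (53.1%), against 23.3% of all 32851 windows. AGGAAGT was found in 7 of the 32 windows (21.9%), against 7.69% of all windows. Such a match describes the letters of a window and is not evidence of binding.

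**Figure D2:**
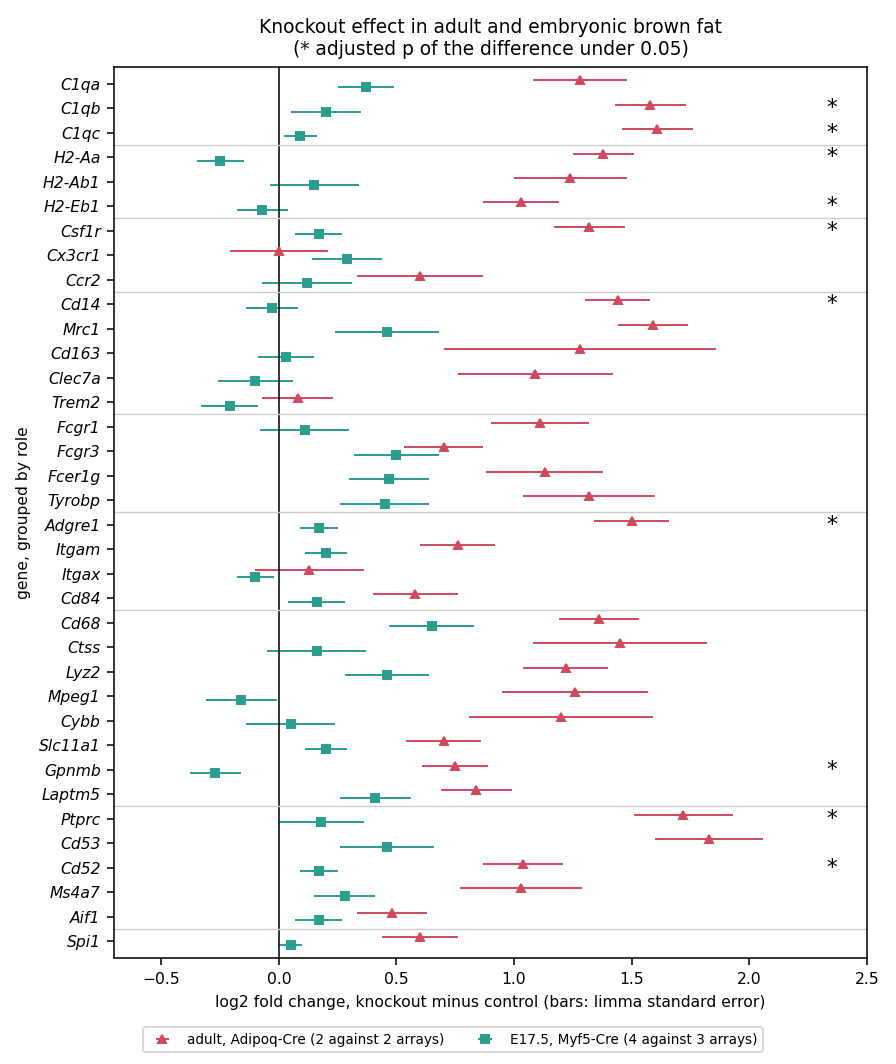
Log2 difference between knockout and control for each of the 36 members in adult and in E17.5 brown fat, with bars of 1 standard error (triangles: adult, squares: embryo). Asterisks mark the 10 members whose effects differ at an adjusted p under 0.05. The adult values run from 0.00 (Cx3cr1) to 1.83 (Cd53), and the embryonic values run from -0.27 (Gpnmb) to 0.65 (Cd68).

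In embryonic brown fat the differences of these members were small. The median over the 36 members was 0.17, against -0.01 over all genes, and 28 members (77.8%) had a positive difference, against 46.1% of all genes. Knockout arrays lay entirely above control arrays for 4 members (11.1%), against 8.56% of all genes, a share near the background. These were C1qa, Fcgr3, Cd68 and Laptm5. No member lay entirely below, against 6.83% of all genes.

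By limma 0 members were called in the embryo, where 0.658% of all genes were called higher and 0.5% lower. At an unadjusted p under 0.05, 7 members were higher (19.4%), against 10.9% of all genes, and 2 were lower, against 9.13%. With 1 array left out the count of 7 ran from 2 to 10: it was 2 without control replicate 2 or knockout replicates 1 or 4, 4 without control replicate 3 and 10 without control replicate 1. A difference of 2-fold or more was reached by 0 members, against 0.388% of all genes. The calls over all genes depended on every array, since limma called 0 genes when any 1 of the 7 was left out. Cd68 measured 6.90, 6.73 and 6.20 in embryonic controls and 7.48, 7.07, 7.38 and 7.10 in knockouts, the largest difference of the set (0.65 ± 0.18, adjusted p = 0.12). Its highest control array came close to the lowest knockout array. C1qa measured 5.69, 5.55 and 5.64 in controls and 6.22, 6.16, 5.83 and 5.80 in knockouts (0.37 ± 0.12, adjusted p = 0.15). Fcgr3 measured 4.89, 4.78 and 4.53 in controls and 5.47, 4.98, 4.93 and 5.56 in knockouts (0.50 ± 0.18, adjusted p = 0.19). In both genes some knockout arrays lay close to the top control array.

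Other members with embryonic differences near 0.5 had overlapping arrays. These were Fcer1g (0.47 ± 0.17), Mrc1 (0.46 ± 0.22), Lyz2 (0.46 ± 0.18), Cd53 (0.46 ± 0.20) and Tyrobp (0.45 ± 0.19). Mrc1 measured 8.83, 8.25 and 7.97 in controls and 8.88, 8.6, 8.65 and 9.12 in knockouts, with its first control above 2 of the knockouts. On control replicate 1, 24 of the 36 members had their highest value of the 3 controls. The mean over the members was 5.12 on that array and 4.89 on each of the other controls, against 5.26, 5.05, 5.02 and 5.20 in the knockouts.

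Several members that differed widely in the adult did not differ in the same way in the embryo. H2-Aa measured 4.27, 4.10 and 4.27 in controls and 4.09, 4.12, 3.75 and 3.88 in knockouts (-0.25 ± 0.10, adjusted p = 0.24). C1qb measured 7.11, 6.84 and 6.77 in controls and 7.37, 6.91, 7.24 and 6.90 in knockouts, a difference of 0.20. Cd14 measured 3.27, 3.16 and 3.16 in controls and 3.44, 3.07, 3.16 and 3.02 in knockouts, a difference of -0.03, and its values were under the array median on every embryonic array. The groups of C1qb and Cd14 overlapped, and those of H2-Aa overlapped at 4.10 and 4.12. Csf1r was at 6.90, 6.86 and 6.61 in controls and 7.16, 6.90, 6.86 and 6.90 in knockouts (0.17), and Adgre1 at 5.26, 5.0 and 5.16 in controls and 5.36, 5.26, 5.20 and 5.41 in knockouts (0.17). Spi1 differed by 0.05.

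The lowest embryonic differences after H2-Aa and Gpnmb (-0.27 ± 0.11) were those of Trem2 (-0.21), Mpeg1 (-0.16), Clec7a (-0.10) and Itgax (-0.10). Equal values on several arrays limit what the embryonic spread can show. Of the 41345 transcript clusters, 49.9% had equal values on at least 2 of the 7 embryonic arrays, against 3% over the adult arrays, and 17 of the 36 members were among them.

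The difference between the adult and the embryonic knockout effects was tested directly, in a fit of the 11 brown fat arrays. The adult effect was larger for 35 of the 36 members, against 52.3% of all genes, with a median difference of 0.95 against 0.01. Limma called 10 members (27.8%), all with the larger effect in the adult, against 1.28% of all genes in that direction and 0.703% in the other. At an unadjusted p under 0.05, 27 members had the larger effect in the adult, against 8.82% of all genes, and 0 in the embryo, against 7.46%. Age, Cre line and the genotype of the controls all differ between the experiments and cannot be told apart. This fit also shares a spread between adult arrays and embryonic arrays, where equal values are frequent.

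The called members covered most roles of the set. From MHC class II, H2-Aa differed by 1.63 ± 0.16 (adjusted p = 0.0025) and H2-Eb1 by 1.09 ± 0.20 (adjusted p = 0.024). From C1q, C1qc differed by 1.52 ± 0.14 (adjusted p = 0.0016) and C1qb by 1.37 ± 0.23 (adjusted p = 0.016). The receptors Cd14 (1.47 ± 0.17, adjusted p = 0.0042), Adgre1 (1.33 ± 0.16, adjusted p = 0.0046) and Csf1r (1.15 ± 0.18, adjusted p = 0.013) were also called. Gpnmb differed by 1.01 ± 0.17 (adjusted p = 0.02). The others were the leukocyte genes Ptprc (1.55 ± 0.29, adjusted p = 0.027) and Cd52 (0.87 ± 0.17, adjusted p = 0.029). Several called members were dim in the embryo, where array medians were 3.49 to 3.57 and upper quartiles 5.51 to 5.6. There H2-Aa measured 3.75 to 4.27, H2-Eb1 3.85 to 4.25, Gpnmb 3.33 to 3.93 and Cd52 3.75 to 4.18, and Cd14 was under the median. On the adult control arrays H2-Aa and H2-Eb1 were above the upper quartile.

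With each of the 11 arrays left out in turn, 6 of these 10 members passed every time, namely Adgre1, C1qb, C1qc, Cd14, Csf1r and H2-Aa. Gpnmb lost its call without adult knockout replicate 2 (adjusted p = 0.06). H2-Eb1 lost it without embryonic control replicate 3, embryonic knockout replicates 2 or 3, adult control replicate 2 or adult knockout replicate 2 (adjusted p up to 0.071). Ptprc and Cd52 each kept their call with 3 of the 11 arrays left out, with adjusted p-values up to 0.083 and 0.075.
For Ptprc the arrays that kept it when left out were embryonic control replicate 2, embryonic knockout replicate 4 and adult knockout replicate 1. For Cd52 they were embryonic control replicate 3, embryonic knockout replicate 3 and adult control replicate 1.

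Members whose difference of effects missed the threshold included Cx3cr1 (-0.29, adjusted p = 0.66), Fcgr3 (0.20, adjusted p = 0.79), Itgax (0.23, adjusted p = 0.68), Trem2 (0.29, adjusted p = 0.52), Aif1 (0.31, adjusted p = 0.41) and Cd84 (0.42, adjusted p = 0.37). Cd68, the member with the largest embryonic difference, differed by 1.36 in the adult and 0.65 in the embryo (0.71, adjusted p = 0.24). Mpeg1 (1.42, adjusted p = 0.061), Cd53 (1.37, adjusted p = 0.069) and Spi1 (0.55, adjusted p = 0.069) came closest to the threshold among those not called. These p-values do not show that the effects are equal.

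**Figure D3:**
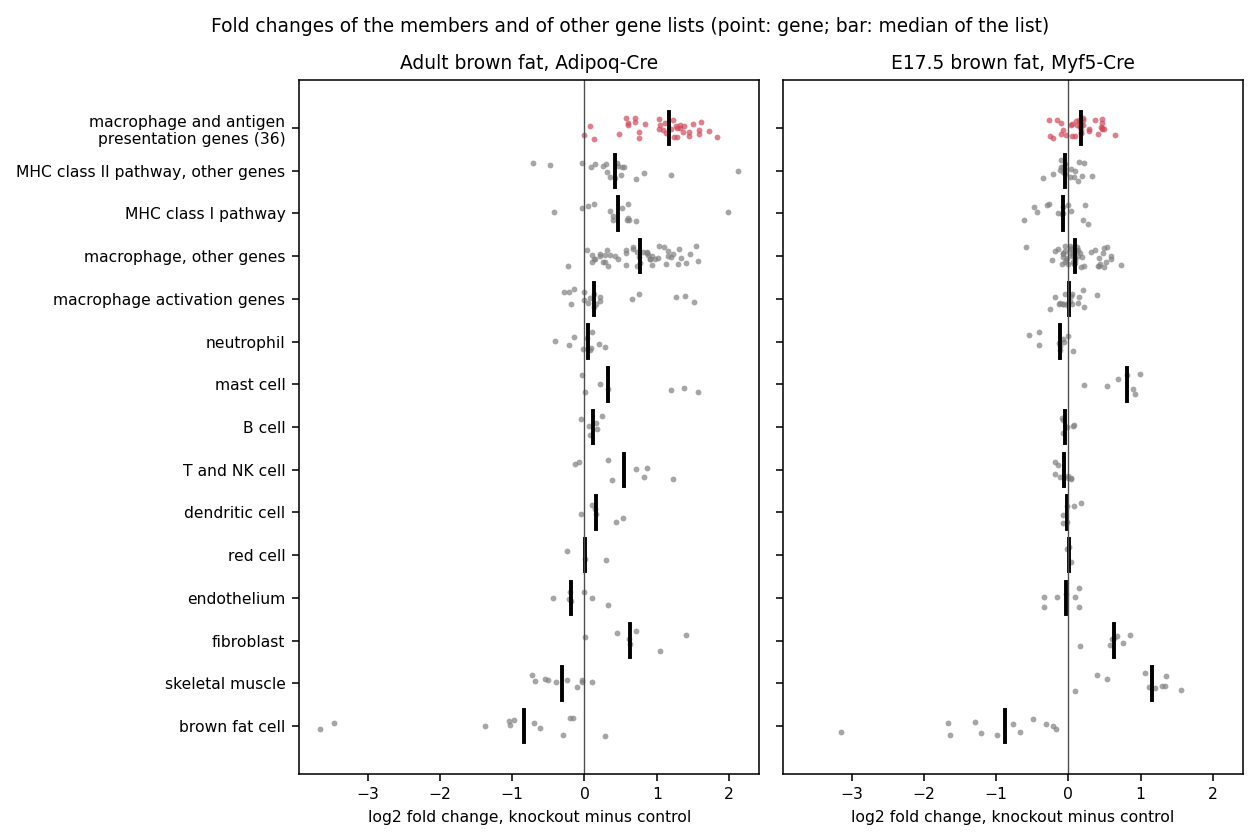
Log2 fold change, knockout minus control, of the 36 members and of the genes in the other lists, in adult and E17.5 brown fat (points: genes, bars: median of the list). The members' median is 1.16 in the adult and 0.17 in the embryo, and brown fat cell genes have medians of -0.84 and -0.87.

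The remaining genes of the class II pathway had smaller differences. Over its 19 genes the adult median was 0.42 and the embryonic median -0.04. At an unadjusted p under 0.05, 6 were higher and 1 lower in the adult, against 7.75% and 5.83% of all genes. The embryo had 1 in each direction, against 10.9% higher and 9.13% lower. In both tissues limma called 0 of the 19 after adjustment. Ifi30, a lysosomal thiol reductase that unfolds antigens, measured 6.13 and 5.63 in adult controls and 7.96 and 8.06 in knockouts, a difference of 2.13, the highest of the list. The lowest was Nfyc, a subunit of NF-Y, at -0.71. Ciita, the master regulator of class II genes, measured 3.53 and 3.35 in controls and 3.90 and 3.98 in knockouts. The adult effect exceeded the embryonic effect for Ifi30 (1.80 ± 0.26, adjusted p = 0.0081) and for the costimulatory ligand Cd86 (1.11 ± 0.22, adjusted p = 0.035). Ifi30 kept this call with each of the 11 arrays left out, and Cd86 kept it with 2 of them left out (adjusted p up to 0.093).

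Genes of MHC class I, which almost every cell carries, had adult differences of varying size. Of 14 differences, 12 were positive and 2 negative, against 50.5% of all genes positive. Both knockout arrays lay above both controls for 9, against 21.8% of all genes, and below them for 1, against 20.1%. The 14 measured genes had a median of 0.46 in the adult and -0.08 in the embryo. At an unadjusted p under 0.05, 8 were higher in the adult, against 7.75% of all genes, and 0 lower, against 5.83%. After adjustment limma called 0 in either tissue. Psme1, a proteasome activator subunit, was lower on both adult knockout arrays (-0.42 ± 0.21). H2-K1, a class I heavy chain, measured 7.73 and 7.70 in adult controls and 9.65 and 9.76 in knockouts. It differed between the effects by 2.28 ± 0.21 (adjusted p = 0.0016), and the immunoproteasome subunit Psmb8 by 0.62 ± 0.14 (adjusted p = 0.049). H2-K1 kept this call with each of the 11 arrays left out, and Psmb8 kept it with 1 of them left out (adjusted p up to 0.1). H2-K1 belongs to a family of near-identical genes, so its probes may read other class I genes.

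Of 49 other macrophage genes measured, 48 had a positive difference in the adult, against 50.5% of all genes. Both knockout arrays lay above both controls for 38, against 21.8% of all genes, and 15 were at least 2-fold higher, against 1.53%. At an unadjusted p under 0.05 there were 31 higher, against 7.75%, with 0 called by limma. Their median was 0.77 in the adult and 0.09 in the embryo. The adult effect was larger than the embryonic effect for 44 of these 49, against 52.3% of all genes. Limma called 7 of them, against 1.28% of all genes. These were Cbr2 (1.61), the lysosomal protease gene Ctsd (1.52), the galectin gene Lgals3 (1.20), Cd86, Cd48 (1.08), the NADPH oxidase subunit gene Ncf1 (0.83) and Vav1 (0.79). Ctsd and Lgals3 are expressed in many other cell types. Cbr2 measured 8.18 to 10.65 on the 3T3-L1 arrays, above their upper quartiles of 6.45 to 6.6. Ctsd lay above those quartiles too, as did Maf, Csf1, Axl and Ctsb of the same list, so these genes are not particular to macrophages. Ctsd, Lgals3 and Cd48 kept the call with each of the 11 arrays left out. Cbr2 lost it without adult control replicate 2 or adult knockout replicate 1 (adjusted p up to 0.059), and Vav1 and Ncf1 kept it with 3 and 1 of the arrays left out.

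Of 18 genes of macrophage activation, 12 had a positive and 6 a negative difference in the adult. Both knockout arrays lay above both controls for 7, against 21.8% of all genes, and below them for 2, against 20.1%. At an unadjusted p under 0.05, 4 were higher, against 7.75% of all genes, with 0 lower and 0 called by limma. The adult median was 0.13 and the embryonic median 0.01. The cytokine gene Tnf differed by 0.07 in the adult and Il6 by -0.14. Nos2, an enzyme of inflammatory activation, differed by -0.21, and Arg1, an enzyme of alternative activation, by -0.01. Mgl2, a lectin of alternatively activated macrophages and dendritic cells, measured 4.33 and 4.12 in controls and 5.92 and 5.55 in knockouts. The chemokine gene Ccl6 differed by 1.39 ± 0.57 and Ccl9 by 1.27 ± 0.46, each with most of the difference on knockout replicate 2. The adult effect exceeded the embryonic effect for Il1b (0.88 ± 0.19, adjusted p = 0.042) and Retnla (0.71 ± 0.14, adjusted p = 0.036). These calls held with 1 and 4 of the 11 arrays left out, and with the others left out the adjusted p reached 0.098 and 0.097.

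Lists of markers of other cells were measured on the same adult arrays, and limma called 0 of their genes. T and NK cell markers had a median of 0.55, and their mean level was 2.84 and 2.70 in controls and 3.13 and 3.45 in knockouts. Of the 8, 5 were higher without overlap, against 21.8% of all genes, while Cd8a was at -0.13 and Cd3d at -0.07. The adult effect was larger than the embryonic one for all 8, against 52.3% of all genes. Limma called 3 of them, against 1.28% of all genes: Cd3e (1.41), Cd4 (0.83) and Nkg7 (0.69). Cd3e kept this call with each of the 11 arrays left out, and Cd4 and Nkg7 kept it with 3 and 1 of them left out. Fibroblast markers averaged 7.35 and 7.16 in controls and 8.08 and 7.83 in knockouts, with 6 of 7 higher without overlap, against 21.8%. Mast cell markers averaged 4.18 and 3.92 in controls and 4.73 and 4.71 in knockouts. Of the 7, 4 were higher without overlap, against 21.8%, while Ms4a2 was at -0.03. Brown fat cell genes ran the other way, at 9.46 and 10.2 in controls and 8.50 and 8.91 in knockouts. Of the 12, 7 were lower without overlap, against 20.1% of all genes, while Adipoq was higher without overlap (0.28 ± 0.13). The part of these cells in the result was not tested.

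The other leukocyte lists had smaller medians in the adult. Neutrophil markers averaged 2.25 and 2.54 in controls and 2.45 and 2.34 in knockouts, under the array medians of 2.87 to 2.89, and 0 of 10 separated. B cell markers had a median of 0.11 and dendritic cell markers of 0.16, with 3 of 6 in each list higher without overlap, against 21.8% of all genes. Cd209a, a lectin of dendritic cells, measured 7.2 and 6.82 in controls and 7.72 and 7.38 in knockouts (0.54 ± 0.20, adjusted p = 0.35). Its transcript cluster also measured 8.77 to 9.44 on the 3T3-L1 arrays, above their upper quartiles of 6.45 to 6.6. The Cd209a signal is thus not particular to dendritic cells here. Endothelial markers had a median of -0.19. Skeletal muscle markers averaged 3.16 and 4.57 in controls and 3.13 and 3.96 in knockouts, and differed between replicates of a group.

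In the embryo these lists gave other values. Brown fat cell genes averaged 8.98 to 9.52 in controls and 7.83 to 8.35 in knockouts. Of the 12, 10 were lower without overlap, against 6.83% of all genes, and Ucp1 and Dio2 were called, against 0.5%. Skeletal muscle markers averaged 5.78 to 6.96 in controls and 7.44 to 7.61 in knockouts. Fibroblast markers averaged 8.73 to 9.14 in controls and 9.45 to 9.66 in knockouts. Col1a1 and Col3a1 were called, against 0.658% of all genes called higher. Mast cell markers averaged 7.05 to 7.66 in controls and 7.80 to 8.10 in knockouts. Of the 7, 5 were higher without overlap, against 8.56% of all genes, and Cma1 was called (0.92, adjusted p = 0.044). T and NK cell markers had a median of -0.06. With any 1 of the 7 embryonic arrays left out these calls were lost, at adjusted p-values of 0.051 to 0.13. Fcer1g, a member, is also a subunit of the mast cell IgE receptor. The part of these cells in the embryonic values was not tested.

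**Figure D4:**
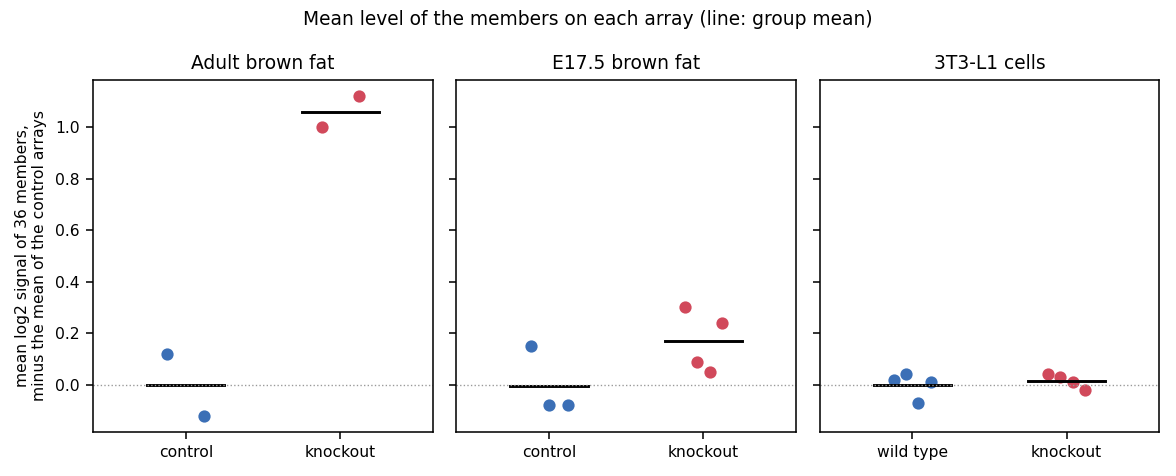
Mean log2 signal of the 36 members on each array, minus the mean of the control arrays of the same experiment (points: arrays, lines: group means). Adult knockout arrays lie 1.0 and 1.12 above the control mean, embryonic knockouts 0.05 to 0.30 above it, and 3T3-L1 arrays within -0.07 and 0.04.

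Most members were dim on the 3T3-L1 arrays. Of the 36, 22 were under the array median on all 8 arrays, 6 were above it on all 8, and 0 were above the upper quartile throughout. On the adult control arrays 14 were above the upper quartile of both. Loss of Med1 gave a median difference of 0.01 over the members, with 19 of 36 positive against 49.8% of all genes, and limma called 0 of them, against 0.0766% of all genes higher and 0.212% lower. At an unadjusted p under 0.05, 3 members were higher, Tyrobp (0.31), Cd68 (0.27) and H2-Ab1 (0.26), and Cd52 was lower (-0.35 ± 0.10). Those counts compare with 5.61% of all genes higher and 6.72% lower. Med1 itself fell by 1.31 on the log2 scale in these cells (SE 0.08, adjusted p = 0.0011). The mean over the members stayed between 4.17 and 4.27 on all 8 arrays.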

How the data were processed

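The authors deposited log2 values of 41345 transcript clusters on 19 arrays. Per the labels' protocols, Trizol was used for RNA extraction and GeneChip WT PLUS reagents for labelling. RMA and Transcriptome Analysis Console are named in the submitters' processing notes. RMA corrects background, equalises distributions and summarises probes. Array medians were 4.69 to 4.79 in cells, 3.49 to 3.57 in embryos and 2.87 to 2.89 in adults, so the experiments appear to have been normalized apart. The platform annotation gave 1 symbol to 23521 clusters, and for genes with several, the cluster with the highest mean was used.

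Limma 3.58.1 in R 4.3.3 (lmFit, eBayes, two-sided) was run on 22180 genes, with Benjamini-Hochberg adjustment and a threshold of 0.05. Values after ± are standard errors. Residual degrees of freedom were 5 in the embryo, 2 in the adult, 7 for the difference of effects and 3 in cells, where 4 wild-type and knockout pairs were a block. For 4 cell arrays the title and source label disagree on the day, and the pairs hold under either. Fits were tested on simulated data. The adult fit recovered 0% of 2-fold and 38% of 4-fold changes, so a missing call there does not show a missing change. The shares were 86% and 100% in the embryo, 66% and 92% for the difference of effects, and 90% and 98% in cells.

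Members, lists and tests were chosen with earlier results of these data known. Named were 12 core members, the 6 highest and 6 lowest per brown fat comparison, called members, and the called and extreme genes of other lists. Other names were chosen after their values were seen. Promoters came from RefSeq (GRCm38.p6). Alternatives left out arrays or dim genes, averaged clusters, normalized again, or used a trend, a replicate block or 1 fit of all arrays.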

Additional observations from a re-analysis of the deposited data

Results flagged for a closer look

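In a fit of all brown fat arrays, the knockout effect differed between adult and embryo for 10 members, with the larger value in the adult. The differences were 1.37 for C1qb, 1.52 for C1qc, 1.63 for H2-Aa, 1.09 for H2-Eb1 and 1.15 for Csf1r. They were 1.47 for Cd14, 1.33 for Adgre1, 1.01 for Gpnmb, 1.55 for Ptprc and 0.87 for Cd52. Of these, Cd14, H2-Aa, H2-Eb1, Gpnmb and Cd52 were dim on the embryonic arrays.

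Among the 4 embryonic knockout arrays, 1 array stood apart from the others, relative to their range, for 4 of 36 members checked. The gap to the nearest array, as a share of the range, was 1 for H2-Eb1, 0.879 for Csf1r, 0.896 for Slc11a1 and 1 for Cd52, above Dixon's critical value for 4 arrays. Chance gives such a gap in about 1 of 20 groups. Equal values on several arrays raise this share: H2-Eb1 measured 4.09 on 3 arrays and 3.86 on 1, and Cd52 measured 4.01 on 3 arrays and 4.18 on 1. Equal values also occur in Csf1r (7.16, 6.90, 6.86 and 6.90) and Slc11a1 (4.92, 4.68, 4.68 and 4.7).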

How the results depend on the processing

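Directions held for every member result that was called, and no such result reversed in the alternatives run. Under them the number of genes called varied widely. In the adult, 6 genes were called, against 139 with a replicate block, 37 with a trend, 69 with dim genes left out, 66 with quantile normalization again and 2049 in the fit of 8 groups on all 19 arrays. Members called higher in the adult numbered 0, against 9 with the replicate block, 6 with dim genes left out, 6 with quantile normalization again and 31 in the fit on all 19 arrays. With each adult array left out, 0 genes and 0 members were called by limma, with 24 to 30 members higher at an unadjusted p under 0.05, and the members' median ran from 0.90 to 1.39. In the embryo, 257 genes were called, against 0 with the replicate block, 0 with a trend, 1114 with dim genes left out and 1527 in the fit on all 19 arrays. With each embryonic array left out, 0 were called and the median ran from 0.11 to 0.23. For the difference of effects, leaving out an array gave 206 to 524 genes, 7 to 12 members and a median of 0.68 to 1.10, against 441, 10 and 0.95. In cells, 64 genes were called, against 9 with no block and days by the source label, 244 with a trend, 175 with dim genes left out, 177 in the fit on all 19 arrays and 21, 25, 32 and 20 with a pair left out. The members' median in cells was 0.06 with dim genes left out and -0.02 to 0.03 with a pair left out. The cause of these shifts was not tested. Each array's deviations from its group mean were correlated over all genes between the 2 groups. In the embryo, same-numbered arrays gave 0.31, -0.02 and 0.11, and differently numbered arrays gave -0.38 to 0.30. In the adult, where 2 arrays a group leave a single value, same-numbered arrays gave 0.33. Such arrays are not known to share an animal or litter. The number of arrays limits precision, 2 a group in the adult above all.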
